A study of Mus musculus with 5 samples.

Results

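Clu, Anxa1, Anxa3, S100a6, Ctgf, Cyr61, Ly6a, Cald1 and Trp53i11 are 9 genes listed here as markers of fetal-like and regenerating intestinal epithelium. They were measured in RNA from the intervillus epithelium of newborn mouse jejunum (proximal part), cut out by laser. The RNA came from mutants and controls for the DNA methyltransferase gene Dnmt1. The 9 were taken by symbol from a table of 22869 gene symbols, of which 14572 passed the filter on low counts; all 9 were found, each in 1 transcript row, and all 9 passed the filter. They lie on mouse chromosomes 14 (Clu), 19 (Anxa1), 5 (Anxa3), 3 (S100a6 and Cyr61), 10 (Ctgf), 15 (Ly6a), 6 (Cald1) and 2 (Trp53i11). The mutant group held 2 libraries, numbered 4 and 6, of genotype Dnmt1 L/L; VillinCre, and the control group held 3 libraries, numbered 1, 2 and 3, of genotype Dnmt1 L/+, all at postnatal day 0. VillinCre expresses the recombinase from the villin promoter, which is active in the gut epithelium and not in the underlying tissue; the labels do not spell out what L stands for and name no Cre for the controls. The tissue was kept 1 h in methacarn, and areas were picked by Ki67 staining of neighbouring sections: Ki67-negative areas in mutants and Ki67-positive areas in controls. Genotype and the choice of areas therefore cannot be told apart in any comparison here.

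In the adult intestine, injury makes part of the epithelium leave its normal programme and switch on genes that are otherwise typical of the fetal gut. The secreted chaperone clusterin (Clu), the surface protein Sca-1 (Ly6a) and annexin A1 (Anxa1) are used to recognise such cells in mice. The co-activator YAP, which binds DNA through TEAD factors, is known to drive this state after damage, and Ctgf and Cyr61, which encode the secreted matrix-associated proteins CCN2 and CCN1, are its most widely used target genes.

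The libraries held 8730268 and 10260760 reads in mutants and 10530200 to 13356901 reads in controls, counted with 1 row per gene. Between libraries of the same group the counts differed by a chi-square per gene of 10.4 to 26.8, well above sampling noise. Dnmt1 itself was 37.8 and 40.5 CPM (counts scaled to library size) in mutants, against 123, 128 and 95.1 CPM in controls, and fell by 1.56 on the log2 scale (edgeR adjusted p = 3.74e-05). Mki67, which encodes Ki67, was lower but not absent in mutants. Its level was 511 and 506 CPM there, against 927, 1022 and 773 CPM in controls (log2 fold change -0.84, edgeR adjusted p = 0.00284). Mutants had 4 and 3 reads of 4 Y-linked genes and controls 2710 to 3160. Xist, expressed from the inactive X chromosome, was 900 and 639 CPM in mutants, against 3.63, 4.26 and 2.96 CPM in controls. By these transcripts the mutant libraries were female and the control libraries male, so genotype and sex cannot be told apart here. Nothing in the labels says that the libraries came from separate animals, so p-values refer to the spread among these 5 libraries, part of which may be technical.

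Promoter sequences for 5 of the 9 genes were found in a RefSeq table of build GRCm38.p6, as windows of 300 bases from 250 bases before to 50 bases after the annotated start. Those of Anxa1 and S100a6, which rose in mutants, of Trp53i11, which fell, and of Cyr61, the YAP target, are shown because Dnmt1 acts on CpG sites; capitals mark every CpG, and each sequence reads 5′ to 3′ on the strand of its gene. The windows are chr19:20390622-20390921 on the minus strand for Anxa1, chr3:90612644-90612943 on the plus strand for S100a6, chr2:93187298-93187597 on the plus strand for Trp53i11 and chr3:145649936-145650235 on the minus strand for Cyr61, which the table lists as Ccn1.
Anxa1: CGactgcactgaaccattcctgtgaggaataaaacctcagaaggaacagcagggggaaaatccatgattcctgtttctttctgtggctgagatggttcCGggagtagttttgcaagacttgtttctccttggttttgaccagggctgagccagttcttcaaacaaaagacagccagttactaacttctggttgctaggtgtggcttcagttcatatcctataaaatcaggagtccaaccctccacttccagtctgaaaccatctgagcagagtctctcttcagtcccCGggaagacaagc
S100a6: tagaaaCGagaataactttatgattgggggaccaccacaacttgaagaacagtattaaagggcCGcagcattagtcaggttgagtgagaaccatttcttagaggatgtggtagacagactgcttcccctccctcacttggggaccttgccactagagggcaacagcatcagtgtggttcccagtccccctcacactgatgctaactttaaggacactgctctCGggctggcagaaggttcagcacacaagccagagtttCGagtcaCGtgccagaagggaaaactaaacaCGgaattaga
Trp53i11: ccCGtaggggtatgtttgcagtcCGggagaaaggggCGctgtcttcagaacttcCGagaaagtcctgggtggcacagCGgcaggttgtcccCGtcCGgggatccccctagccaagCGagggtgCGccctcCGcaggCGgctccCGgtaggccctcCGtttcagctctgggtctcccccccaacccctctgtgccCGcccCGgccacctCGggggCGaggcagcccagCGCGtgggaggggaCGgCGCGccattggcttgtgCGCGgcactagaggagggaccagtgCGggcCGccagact
Cyr61: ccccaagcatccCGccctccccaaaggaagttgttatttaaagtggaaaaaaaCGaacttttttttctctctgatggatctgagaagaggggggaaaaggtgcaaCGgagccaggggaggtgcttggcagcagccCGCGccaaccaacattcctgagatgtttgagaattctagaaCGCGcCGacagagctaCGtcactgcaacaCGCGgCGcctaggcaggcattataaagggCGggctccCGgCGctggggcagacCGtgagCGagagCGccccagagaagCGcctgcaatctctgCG

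The Anxa1 window held 3 CpG and that of S100a6 held 6, where the median over all 32851 promoter windows was 7. The 2 windows of Cald1, which also rose, held 6 and 5. Cyr61 had 20 CpG, and Trp53i11 had 26, a number that 16.9% of all windows reach. The letters GGAATG, the core of the TEAD motif, were searched on both strands and occur in 14.7% of all windows. They were present once on the reverse strand in the windows of Anxa1 and Cyr61 (readable above as cattcc, from base 15 and base 148 counted from the 5′ end) and once on the forward strand in 1 of the 2 windows of Cald1. The AP-1 letters TGANTCA, found in 7.81% of all windows, were present in the other window of Cald1 and in none of the remaining 5 windows. The CpG counts and the matches describe letters in the window, and neither DNA methylation nor binding was measured here. Ctgf, Clu, Anxa3 and Ly6a have no entry in the table.

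Of the 9 genes, 5 rose in mutants, namely Clu, Anxa1, S100a6, Anxa3 and Cald1, Trp53i11 fell, and Ctgf, Cyr61 and Ly6a did not pass the test (edgeR quasi-likelihood test with Benjamini-Hochberg adjustment, threshold 0.05). Over all 14572 genes tested, 6.11% rose and 4.17% fell, or 10.3% in either direction. The median log2 fold change of the 9 was 0.61, against -0.0072 over all genes, and 8 of the 9 values were positive. The 9 were chosen with earlier results of these data known, so their comparison with all genes is a description only. In the 5 genes that rose both mutants lay above all controls, in Trp53i11 both lay below, and in the other 3 the groups overlapped; across all genes both mutants lay above in 21.7% and below in 21.8%, or 43.6% in either direction. Together the 9 genes summed to 443 and 334 CPM in mutants 4 and 6, against 194, 219 and 275 CPM in controls 1, 2 and 3.

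**Figure D1:**
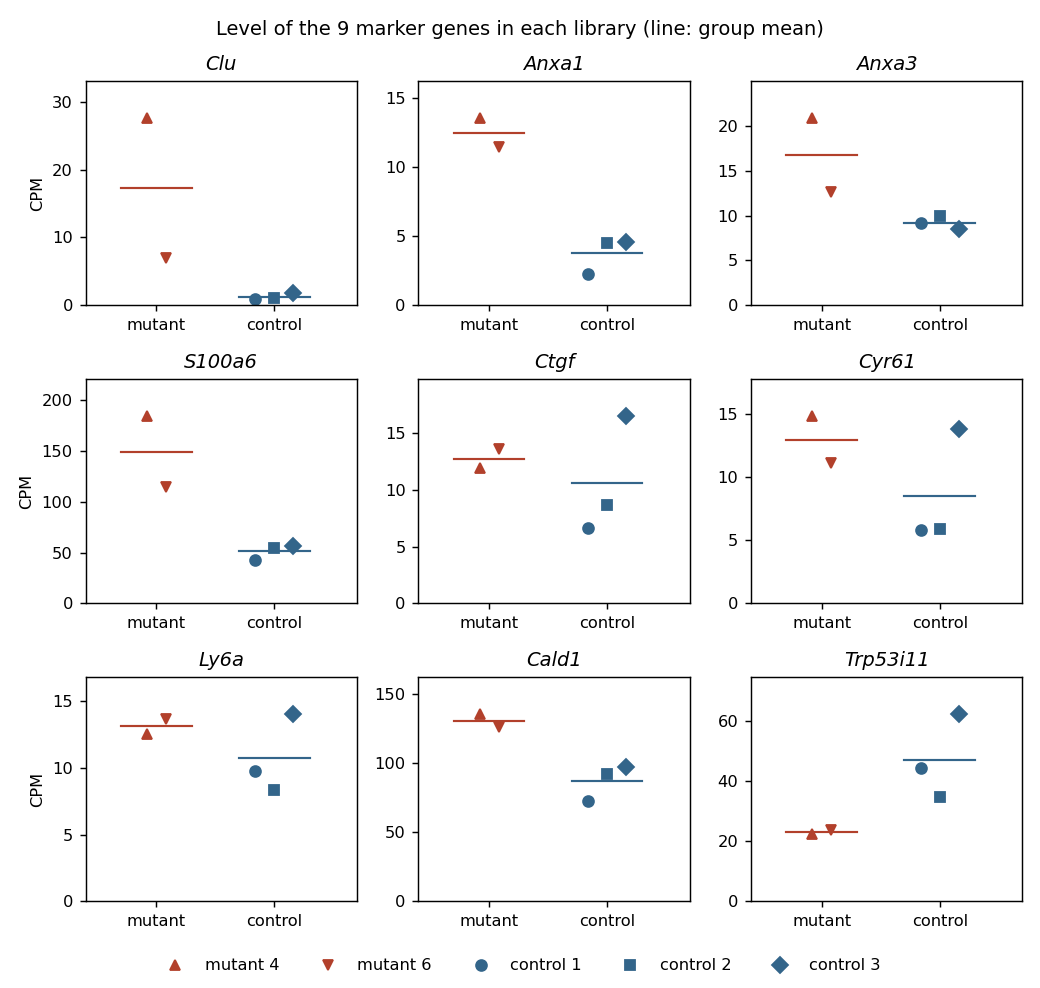
Level of each of the 9 genes in every library, in CPM on linear axes that start at 0. Mutants (red) are at the left and controls (blue) at the right of each panel, symbols mark single libraries and lines the group means. Clu, Anxa1, Anxa3, S100a6 and Cald1 lie above all controls in both mutants and Trp53i11 below, while control 3 lies with or above the mutants for Ctgf, Cyr61 and Ly6a.

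Clu had the largest change of the 9 and the widest spread between mutants. Clusterin is secreted and binds misfolded proteins, and in the mouse intestine Clu marks rare cells that appear after irradiation. It was 27.5 and 7.02 CPM in mutants 4 and 6, against 0.936, 1.12 and 1.83 CPM in controls 1, 2 and 3. Both mutants stood well above every control, but mutant 4 was 3.92 times as high as mutant 6. The read counts behind these levels were 311 and 91 in mutants and 17, 19 and 26 in controls. The log2 fold change was 3.74 ± 0.49 (SE; edgeR adjusted p = 0.000294), which ranked 105th among all genes tested, counted from the largest rise. The rise passed the test without mutant 4, at 2.44, and without mutant 6, at 4.42, so its size depends on which mutant library is used while its call does not.

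Both annexins of the set rose. Annexins bind membrane phospholipids when calcium is present, and annexin A1 is known as a pro-resolving mediator that promotes wound closure in intestinal epithelium. Anxa1 was 13.5 and 11.5 CPM in mutants, against 2.26, 4.498 and 4.58 CPM in controls. The mutants were close to each other and both lay well above the highest control. Its log2 fold change was 1.73 ± 0.31 (edgeR adjusted p = 0.00341) and ranged from 1.46 to 1.90 when 1 library was left out, passing the test each time. Anxa3 was 20.8 and 12.6 CPM in mutants, against 9.19, 9.94 and 8.52 CPM in controls. Here the controls lay close together and mutant 4 again stood above mutant 6. Its log2 fold change was 0.85 ± 0.24 (edgeR adjusted p = 0.0397), and this rise was no longer called without control 1 (adjusted p = 0.124), control 2 (0.05001), control 3 (0.0691) or mutant 4 (0.436, log2 fold change 0.45), nor with limma-voom.

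Of the other 9 annexins tested, Anxa2, Anxa5 and Anxa8 rose and 6 did not pass. Anxa2, which forms a complex with S100a10 at the plasma membrane, was 371 and 339 CPM in mutants, against 150, 171 and 219 CPM in controls (log2 fold change 0.98 ± 0.16). Its partner S100a10 was 268 ± 26.4 CPM in mutants (SD, n = 2) and 280 ± 42.3 CPM in controls (SD, n = 3), with an edgeR adjusted p of 0.835. Anxa8 was scarce, with 27 reads in the mutants and 2 in the controls, a ratio of 27.4 in CPM (exact binomial 95% interval 6.89 to 238, counting error only, since amplified reads are not independent molecules). With so few control reads it passed the filter on low counts only through the mutants, and without mutant 4 it was not tested. The most abundant annexin, Anxa4, was 621 ± 56.8 CPM in mutants and 620 ± 80.0 CPM in controls.

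S100a6 was the most abundant of the 9 per length of transcript. It encodes calcyclin, a small calcium-binding protein of the S100 family, and is among the genes raised in regenerating intestinal cells of mice. Its level was 184 and 115 CPM in mutants, against 42.8, 54.5 and 56.8 CPM in controls. Both mutants lay well above every control, and mutant 4 was the higher of them. The log2 fold change was 1.54 ± 0.19 (edgeR adjusted p = 0.00016), with a range of 1.16 to 1.84 when 1 library was left out. S100a6 made up 41.6% and 34.4% of the summed CPM of the 9 genes in mutants, against 20.6% to 24.9% in controls. Of 12 other S100 genes tested, S100a1, S100a11, S100a14 and S100b rose, S100g fell and 7 did not pass. The stricter filter on low counts left S100a14 out of the test. S100a11 was not called without mutant 6 (adjusted p = 0.0568), nor S100a14 without mutant 4 (0.0621). S100b, a calcium-binding protein abundant in glia, was 22.6 and 23.3 CPM in mutants, against 6.28, 7.52 and 6.41 CPM in controls (1.77 ± 0.20). S100g, the calbindin of absorptive enterocytes, was 124 and 262 CPM in mutants and 294 to 411 CPM in controls (-0.83 ± 0.25; edgeR adjusted p = 0.0466), and it did not pass without control 1, control 3 or mutant 4, nor with DESeq2, upper-quartile normalization or the stricter filter on low counts.

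**Figure D2:**
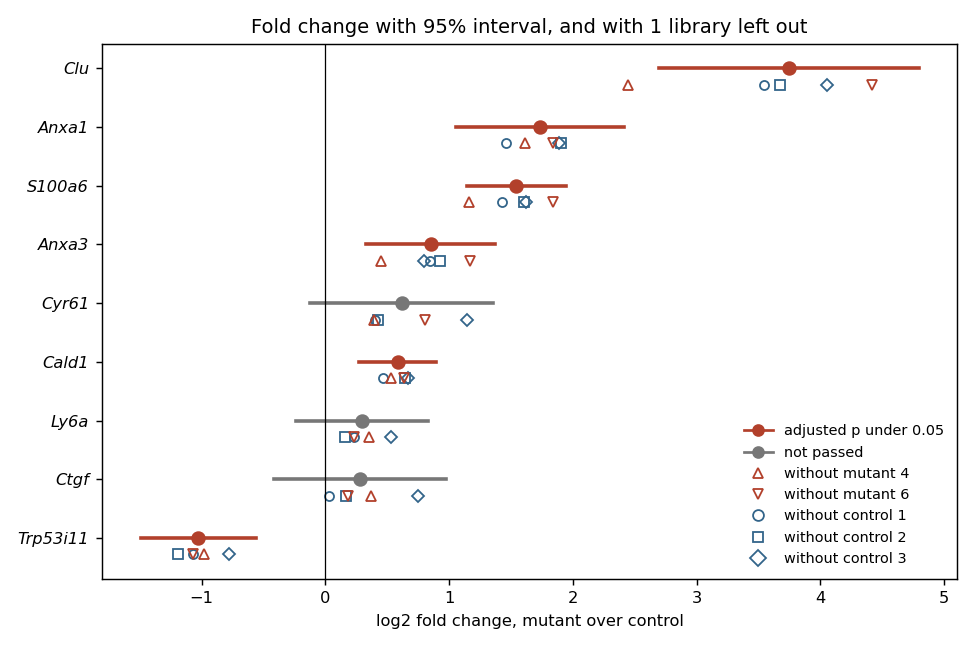
Log2 fold change of each of the 9 genes, mutant over control, with its 95% interval (large points and bars; red where the edgeR adjusted p was under 0.05, grey where it was not). Small open symbols below each bar give the value with 1 library left out: Clu ranges from 2.44 without mutant 4 to 4.42 without mutant 6, and Cyr61 and Ctgf are highest without control 3.

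Ctgf and Cyr61, the YAP and TEAD targets among the 9, did not pass the test. Both genes are also induced quickly by growth factors and mechanical strain. Ctgf was 11.9 and 13.6 CPM in mutants, against 6.61, 8.64 and 16.5 CPM in controls. Control 3 had the highest level of all 5 libraries, so the mutants lay between controls. The log2 fold change of Ctgf was 0.28 with a 95% interval of -0.41 to 0.97 (edgeR adjusted p = 0.625). Cyr61 was 14.8 and 11.1 CPM in mutants, against 5.84, 5.86 and 13.8 CPM in controls. Control 3 again lay with the mutants, and the other controls were lower than both. The log2 fold change of Cyr61 was 0.61 (95% interval -0.13 to 1.36; edgeR adjusted p = 0.28). Without control 3 it was 1.14 and passed (adjusted p = 0.0151), while Ctgf was 0.74 and did not (0.0889).

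Among 19 other YAP and TEAD target genes tested, 4 rose and 15 did not pass, with a median log2 fold change of 0.20. Nt5e, which encodes the surface enzyme CD73 that makes adenosine, was 61.4 and 9.41 CPM in mutants, against 3.47, 2.43 and 1.34 CPM in controls (3.84 ± 0.57; edgeR adjusted p = 0.000787). As with Clu, mutant 4 was far above mutant 6 for Nt5e, and without mutant 4 its log2 fold change was 1.95. The others were Axl, a receptor tyrosine kinase and the most abundant of the list (0.48 ± 0.13), the growth factor gene Tgfb2 (1.09 ± 0.32) and Rbms3, an RNA-binding protein (0.68 ± 0.19). Axl did not pass without any 1 of the 5 libraries, and Tgfb2 and Rbms3 did not without control 1, control 2 or mutant 4; the count of rises was 1 in these 3 cases and 3 in the others. Ankrd1, a common YAP readout in other tissues, had 0 reads in mutants and 1 in controls.

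Of 20 genes of the Hippo pathway and the YAP cofactors, Wwtr1 rose, Amot fell and 18 did not pass. Their median log2 fold change was -0.036. Over all genes tested 6.11% rose and 4.17% fell, so these counts are close to the background. Amot, a scaffold that can hold YAP at cell junctions, was 50.2 and 59.5 CPM in mutants, against 95.5, 114 and 104 CPM in controls (-0.93 ± 0.14; edgeR adjusted p = 0.000994). Wwtr1, which encodes the YAP relative TAZ, was 37.8 and 45.8 CPM in mutants, against 21.5, 28.9 and 31.3 CPM in controls (0.62 ± 0.18; edgeR adjusted p = 0.0451), and did not pass without control 1 or either mutant. Yap1 was 72.7 ± 6.45 CPM in mutants and 80.3 ± 1.66 CPM in controls (edgeR adjusted p = 0.522). Tead1 was 164 ± 4.53 CPM in mutants and 149 ± 8.55 CPM in controls (edgeR adjusted p = 0.514). Of the CCN relatives of Ctgf and Cyr61, Nov, Wisp1 and Wisp3 were tested; edgeR, DESeq2 and limma-voom each called 0 of them, with 0 at an unadjusted p under 0.05. Wisp1, the most abundant, was 6.13 ± 2.34 CPM in mutants and 4.87 ± 1.149 CPM in controls.

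Ly6a did not pass either. Sca-1 is a lipid-anchored surface protein of regenerating mouse epithelium, and it is also present on endothelial and blood-forming cells and is induced by interferon. It was 12.6 and 13.7 CPM in mutants, against 9.80, 8.34 and 14.01 CPM in controls. All 5 libraries lay within 1.68-fold of each other, the narrowest range of the 9 genes, and control 3 was highest. Its log2 fold change was 0.30 (95% interval -0.24 to 0.83; edgeR adjusted p = 0.488). Ly6a has close copies such as Ly6c1, and how reads that match several of them were counted is not stated in the sources used, so its level is uncertain. Ly6c1 was 6.48 ± 1.41 CPM in mutants and 6.01 ± 0.88 CPM in controls. Of the 6 other Ly6-type genes tested, Ly6e and Ly6d rose and 4 did not pass. Ly6d, with few control reads, passed the filter on low counts only through the mutants. Ly6e was 341 and 241 CPM in mutants, against 122, 115 and 172 CPM in controls (1.09 ± 0.18; edgeR adjusted p = 0.00209). Ly6d had 58 reads in mutants and 5 in controls, and was 4.25 and 0.772 CPM in mutants 4 and 6; its rise was not called without mutant 4. Of 20 interferon response genes tested, Mx2 fell (not called without mutant 6) and 19 did not pass. Their median log2 fold change was 0.058. Over all genes tested 4.17% fell, so this count is close to the background.

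Cald1 rose by less than the annexins and S100a6. It encodes caldesmon, which binds actin and tropomyosin and is most abundant in smooth muscle. Cald1 was 135 and 126 CPM in mutants, against 72.1, 91.6 and 97.0 CPM in controls. The groups did not overlap, and the mutants differed from each other by less than the controls did. The log2 fold change was 0.59 ± 0.14 (edgeR adjusted p = 0.02), and it was not called without control 1 (adjusted p = 0.0892), mutant 4 (0.173) or mutant 6 (0.0848). In such pooled tissue, more cells of a type and more RNA per cell cannot be told apart.

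The summed levels of markers of non-epithelial cells were higher in both mutants than in every control, as was Cald1, although most single markers did not pass the test. Summed over 15 smooth muscle and myofibroblast markers, the level was 1326 and 1130 CPM in mutants and 867 to 1093 CPM in controls; 3 of the 15, Acta2, Myh11 and Tpm2, rose, and leaving out 1 library gave 0 (control 1 or mutant 4), 2 (control 3), 5 (control 2) or 6 (mutant 6) rises. Summed over 15 fibroblast markers it was 3287 and 3097 CPM in mutants and 2204 to 2565 CPM in controls, and 7 rose, against 1 without mutant 4, 3 without mutant 6 and 4 without control 1. The 14 immune markers summed to 430 and 385 CPM in mutants and 202 to 259 CPM in controls, and Csf1r and Mrc1 of macrophages rose. For the 14 endothelial markers the sums were 374 and 350 CPM in mutants and 262 to 310 CPM in controls, and Plvap rose, though not without control 1 or either mutant. The 12 neuron and glia markers summed to 247 and 227 CPM in mutants and 149 to 177 CPM in controls (S100b and Uchl1 rose, and Uchl1 was not called without any 1 library, nor with DESeq2), and 6 mesothelial markers to 5.66 and 5.48 CPM in mutants and 4.40 to 5.14 CPM in controls. Of the 2 mesothelial markers tested, edgeR, DESeq2 and limma-voom each called 0, with 2 at an unadjusted p under 0.05. These went opposite ways: both mutants lay above all controls in 1 and below all controls in the other. The 13 epithelial identity markers, among them Epcam at 875 ± 3.78 CPM in mutants and 1019 ± 76.8 CPM in controls, summed to 4764 and 4620 CPM in mutants and 4882 to 5009 CPM in controls; Krt18 and Cldn4 rose and Cdx2 fell, but Krt18 was not called without mutant 4 (adjusted p = 0.0668) and 3 of the list fell without control 3. None of these markers was at 0 in all 5 libraries. Cald1 amounted to 10.2% and 11.1% of the smooth muscle sum in mutants, against 7.49%, 8.38% and 11.2% in controls, and to 4.11% and 4.06% of the fibroblast sum in mutants, against 3.27%, 3.99% and 3.78% in controls. The part of these cells in the changes of Cald1, Anxa1, S100a6 and the other genes was not tested.

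**Figure D3:**
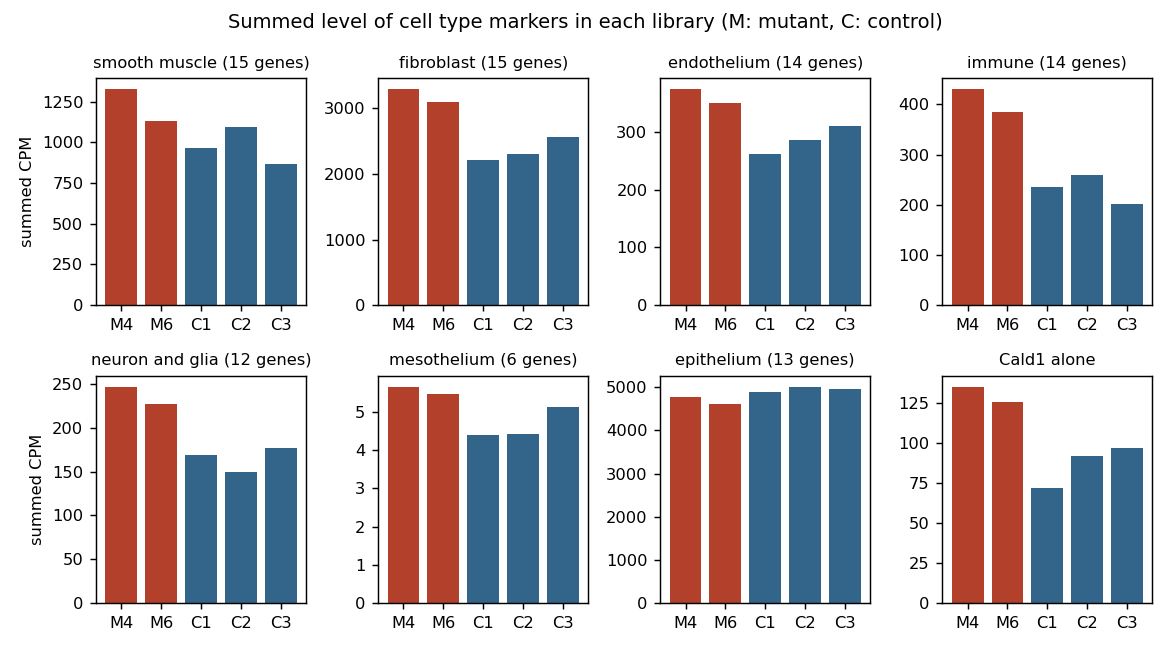
Summed CPM of 7 lists of cell type markers in each library, with Cald1 alone in the last panel; bars start at 0, M4 and M6 are the mutants (red) and C1 to C3 the controls (blue). The sums of the 6 other lists and Cald1 are higher in both mutants than in every control, while the epithelial sum is slightly lower in both.

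Trp53i11 was the gene of the 9 that fell. It encodes a membrane protein known in human cells as induced by p53, and its role in the gut is little known. It was 22.4 and 23.8 CPM in mutants, against 44.3, 34.8 and 62.2 CPM in controls. The mutants were nearly alike, and the controls differed from each other by 1.79-fold. The log2 fold change was -1.03 ± 0.22 (edgeR adjusted p = 0.00827), and it was not called without mutant 4 (adjusted p = 0.072). Of 10 other genes named as p53-induced that were tested, 6 rose and 4 did not pass, with a median log2 fold change of 0.70. Cdkn1a, which encodes the cell cycle inhibitor p21, was 92.9 and 87.1 CPM in mutants, against 33.3, 33.2 and 47.6 CPM in controls (1.25 ± 0.17; edgeR adjusted p = 0.000359). The other rises were those of Trp53inp1, Trp53inp2, Pmaip1, Zmat3 and Ccng1; Trp53inp1 was not called without mutant 4, nor Trp53inp2 without control 1 or either mutant. Ei24, a p53-induced gene of the endoplasmic reticulum, was 70.9 ± 12.7 CPM in mutants and 69.98 ± 5.70 CPM in controls (edgeR adjusted p = 0.952).

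Other markers of fetal-like and regenerating epithelium showed rises and 2 falls. Of 30 listed, 26 were tested: 11 rose, Igf2bp1 and Igf2bp3 fell and 13 did not pass, and the median log2 fold change was 0.69. Leaving out 1 library gave between 4 (without mutant 4) and 11 rises, with 7 without control 1. Areg, which encodes the epidermal growth factor receptor ligand amphiregulin, was 39.7 and 35.8 CPM in mutants, against 3.14, 4.85 and 7.89 CPM in controls (2.85 ± 0.28; edgeR adjusted p = 3.05e-05). Ereg, its relative epiregulin, was 11.6 and 13.9 CPM in mutants, against 1.597, 3.49 and 7.04 CPM in controls (1.68 ± 0.42), and passed only with all libraries or without control 3. Tnfrsf12a, the receptor for the cytokine TWEAK, was 32.2 and 19.2 CPM in mutants, against 7.38, 7.04 and 12.6 CPM in controls (1.52 ± 0.28), and was not called without mutant 4. The cornified envelope gene Sprr1a (2.73 ± 0.80) rested on 33 reads in mutants and 10 in controls. It passed with all libraries or without control 2, at 3.81, but with no other library left out, with 1.89 without mutant 4, and not with DESeq2 or limma-voom. The adhesion receptor gene Cd44 (0.77 ± 0.17, not called without control 1 or mutant 4) was also among the rises. So was the filamin gene Flna (0.43 ± 0.13, not called without any 1 library), as were Anxa2, Anxa5, Anxa8, S100a11 and Ly6d. Anxa8, Ly6d and Sprr1a, with few control reads, passed the filter on low counts only through the mutants. Their direction was therefore largely set by the filter, and the 11 rises and the median of 0.69 include them.

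Several genes used to define the fetal state had few reads, did not pass or fell. Spp1, which encodes the secreted protein osteopontin, had 0 and 16 reads in mutants 4 and 6, against 2, 5 and 4 in controls. Gja1, a gap junction gene, was 18.5 ± 1.73 CPM in mutants and 13.7 ± 1.77 CPM in controls (edgeR adjusted p = 0.188). Igf2bp1 and Igf2bp3, RNA-binding proteins normally abundant in fetal tissues, fell: Igf2bp1 was 21.8 and 19.5 CPM in mutants, against 39.9, 31.3 and 38.4 CPM in controls (-0.82 ± 0.17), and Igf2bp3 was 94.6 and 103 CPM in mutants, against 143, 135 and 125 CPM in controls (-0.45 ± 0.13). The fall of Igf2bp1 was not called without mutant 6, and that of Igf2bp3 passed with all libraries or without control 3 but with no other library left out, nor with upper-quartile normalization. Of 16 immediate early genes, to which Ctgf and Cyr61 are often counted, Fos, Jun, Egr1, Atf3 and Klf4 rose and 11 did not pass (median log2 fold change 0.60); 3 rose without control 1, control 2 or mutant 6. Jun was called with all libraries or without control 3 alone, Klf4 not without control 1, control 2 or mutant 4, and Fos not without mutant 6. Atf3, a stress-induced transcription factor, was 26.2 and 24.2 CPM in mutants, against 3.52, 3.25 and 9.36 CPM in controls (2.24 ± 0.35; edgeR adjusted p = 0.0012).

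**Figure D4:**
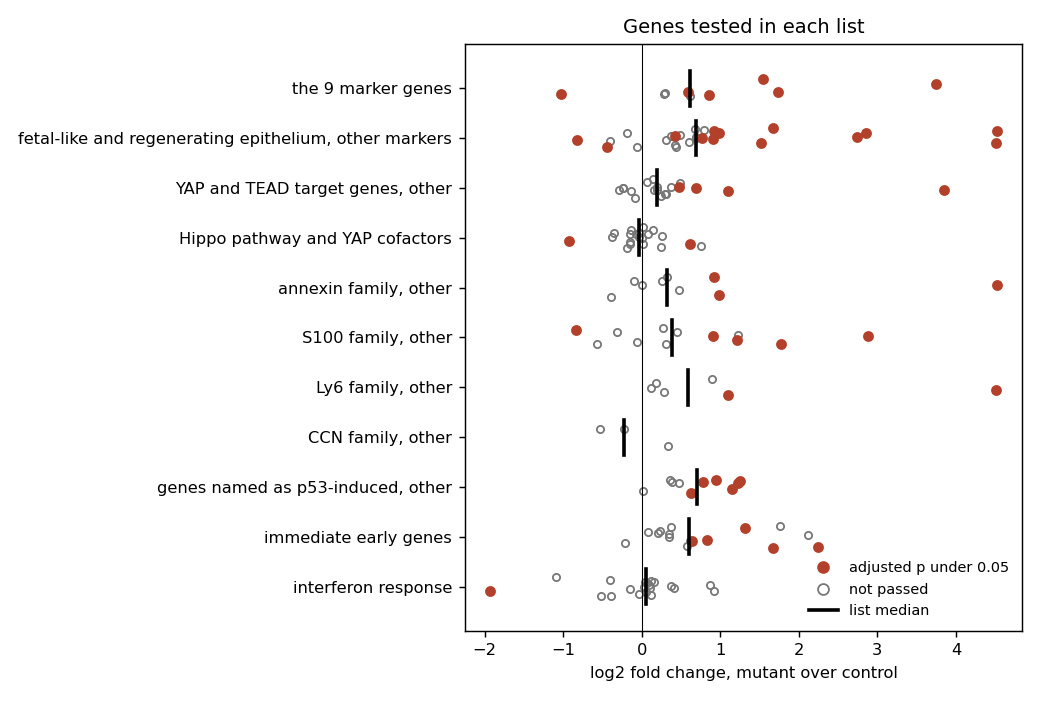
Log2 fold change, mutant over control, of every gene tested in each list; red points had an edgeR adjusted p under 0.05, open grey points did not, and black bars are list medians. The 9 marker genes (median 0.61) and the other fetal-like markers (0.69) are spread to the right of 0, while the YAP target list (0.20) and the Hippo list (-0.036) lie near it. The fetal-like median includes Anxa8, Ly6d and Sprr1a, which passed the filter on low counts only through the mutants. The 9 genes and the lists were chosen with earlier results of these data known.

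Levels of different genes can be compared on the deposited FPKM, which are scaled to transcript length. In mutants the order was S100a6 (199 ± 62.3 FPKM), Cald1 (29.2 ± 0.18), Ly6a (12.0 ± 0.43), Anxa3 (10.1 ± 3.73), Clu (8.69 ± 8.51), Trp53i11 (8.44 ± 0.73), Anxa1 (8.16 ± 0.0042), Cyr61 (6.13 ± 1.37) and Ctgf (5.52 ± 1.21). In controls it was S100a6 (66.8 ± 8.48 FPKM), Cald1 (19.2 ± 1.95), Trp53i11 (15.8 ± 2.50), Ly6a (10.4 ± 3.00), Anxa3 (5.59 ± 0.72), Ctgf (4.51 ± 1.76), Cyr61 (3.46 ± 1.11), Anxa1 (1.90 ± 0.66) and Clu (0.783 ± 0.408). Clu was last of the 9 in controls and rank 5 in mutants, although in mutant 6 alone it was last, at 2.67 FPKM against 14.7 FPKM in mutant 4. In mutants S100a6 and Cald1 stood apart, and from Ly6a to Anxa1 each gene overlapped the next over the 2 libraries, as did Cyr61 and Ctgf. In controls the neighbours Cald1 and Trp53i11, Trp53i11 and Ly6a, Anxa3 and Ctgf, and Ctgf and Cyr61 overlapped, and the other neighbours did not.

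The genes whose profile over the 5 libraries was most like each of the 9 were taken by the smallest root mean square distance of centred log2 CPM, among 10003 genes whose average log2 CPM reached 3. Clu had no close match: Apobec2 and Atg9b were nearest, at distances of 0.42 and 0.485. Anxa1 lay nearest to Ggh and St3gal5 (0.19 and 0.22), and S100a6 to Gramd1b and Ggh (0.13 and 0.14). Cald1 lay nearest to Lamp1 and Pstpip2 (0.045 and 0.048), and Anxa3 to Cyp3a13 and Cd55 (0.059 and 0.10). Ctgf was matched by Man1c1 and Rab30 (0.067 and 0.11), Cyr61 by Prss32 and Oasl1 (0.060 and 0.12), Ly6a by B3gat3 and Aldh1a3 (0.054 each) and Trp53i11 by Rnf152 and Wnk2 (0.064 and 0.088). With 5 libraries such likeness is a description of these profiles.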

How the data were processed

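The tables that the authors deposited give read counts, not normalized, for RefSeq transcripts and FPKM (reads normalised to transcript length and depth) for the same rows; genome build mm9 and edgeR are named per the submitters' processing notes, and the sources used here name no aligner, counting program, strand setting or version. Per the labels' protocols, 2.3 to 33.3 ng of RNA per sample was amplified with the Ovation RNA-Seq System V2, and 300 ng of cDNA went into libraries read as single reads of 100 bp. No column was left unmatched to a library. The test on counts was edgeR's quasi-likelihood F-test over 19353 rows, with Benjamini-Hochberg adjustment over all of them. It used edgeR 4.0.16, R 4.3.3, TMM normalization, the default filter on low counts and no covariate, with 3 residual degrees of freedom. A check on simulated counts changed only well-counted genes, so it does not cover changes in genes with few reads. A gene was represented by its row of highest mean count. A spreadsheet date was replaced by the symbol of the RefSeq transcript in 41 rows. CPM uses the TMM-scaled library size, errors are SD or, for fold changes, SE (the absolute log2 fold change over the square root of F), and intervals cover 95%. The alternatives were RLE and upper-quartile normalization, other filters, DESeq2 1.42.0, limma-voom (limma 3.58.1), limma on log2(FPKM + 1) and log2(FPKM + 0.1), other choices of row, and leaving out each library. The 9 genes and the lists were chosen with earlier results of these data known, and the alternatives for the lists were added after seeing the data. Genes named are the 9, Dnmt1, genes of the lists that passed the test and the most abundant gene of a list. The 2 nearest profiles of each of the 9 are named as well. Yap1, Tead1, Ankrd1, Spp1, Gja1, Ei24, Ly6c1, Nov, Wisp3, Mki67, Xist and S100a10 beside Anxa2 were named after their values were seen.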

Additional observations from a re-analysis of the deposited data

How the results depend on the processing

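None of the 9 genes changed direction under any alternative. All 6 calls were kept with RLE or upper-quartile normalization, no filter or the stricter filter on low counts, and DESeq2. They were also kept with 1 row per gene in the fit. Each of the 9 has 1 row, so taking the row of lowest mean count could not change their calls. Limma-voom lost Anxa3. With 1 library left out, between 3 and 5 of the 9 rose (3 without control 1 or mutant 4) and 0 or 1 fell (0 without mutant 4). Log2(FPKM + 1), log2(FPKM + 0.1) and log2(FPKM + 1) with a mean FPKM of at least 1 were tested by limma. They gave 0, 1 (S100a6) and 2 (Anxa1 and S100a6) rises and 0, 0 and 0 falls. At an unadjusted p under 0.05 there were 5, 6 and 6 rises and 1 fall each. In the main test on counts, 3732 of all 14572 genes had an unadjusted p under 0.05. That share was not counted for the FPKM settings, so their unadjusted counts have no background beside them. Over all genes the FPKM settings gave 97, 155 and 258 rises and 13, 36 and 131 falls, against 891 and 608 from counts. Rises were 88.2%, 81.2% and 66.3% of calls, against 59.4%. In the same order of FPKM settings, the other fetal-like markers gave 1, 1 and 6 rises, against 11 from counts. The other YAP and TEAD targets gave 0, 0 and 0 rises, against 4, and the fibroblast markers 0, 0 and 0, against 7. Immune markers gave 0, 1 and 3 calls, against 2. With no filter 935 genes fell. With 1 library left out 408 to 1057 genes rose and 170 to 645 fell. The cause was not tested. No paired analysis was possible because the groups share no replicate number. Without either mutant, the remaining mutant library is assumed to vary like the controls. With 2 mutant libraries the intervals are wide: that of Ctgf reaches 0.97 on the log2 scale.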
